A study of Mus musculus with 30 samples.

Results

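The tropomyosin genes Tpm1, Tpm2, Tpm3 and Tpm4 were followed through RNA and chromatin measurements of mouse tendon fibroblasts whose actomyosin contraction had been blocked. The members were taken by symbol, and the rule uses no measured value. They are 4 of the 35972 genes listed in both RNA tables, and 7 of the 16367 sites in the 5 deposited lists of changed chromatin sites carry a tropomyosin gene name. All 4 genes passed the minimum of a mean normalised count of 10.

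The cells were primary fibroblasts from mouse tail tendon, labelled wildtype, grown in medium with 10% serum and treated in DMEM with 0.1% serum. RNA came from 3 groups of 3 libraries: the solvent DMSO, blebbistatin at 10 µM, which inhibits the myosin II motor, and the inhibitor Y27632 at 30 µM. ATAC libraries, which mark open chromatin, cover the same 3 groups of 3. A further 12 genomic DNA libraries form 4 groups of 3, given neither drug, blebbistatin at 10 µM, doxycycline at 10 ng/mL, or doxycycline with blebbistatin at these doses; the labels state neither the assay nor what doxycycline switches on in these cells. The treatment time is not given in the sources used here, and no label says that the libraries of a group came from separate cultures or animals, so the p-values measure the spread between libraries, which may be technical. The series asks how mechanical cues and the co-activators Yap and Taz act on chromatin and transcription.

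Tropomyosins are rod-shaped coiled-coil dimers that join end to end and lie along the grooves of the actin filament. They set which proteins reach the filament: some forms recruit non-muscle myosin II and hold stress fibres, and bound tropomyosin shields actin from the severing protein cofilin. Tpm1, Tpm2 and Tpm3 make several proteins by alternative promoters and exons, among them muscle forms and the cytoplasmic forms of fibroblasts. For Tpm4 only 1 transcript is listed. The deposited counts merge all forms of a gene.

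In the GRCm38 assembly Tpm1 lies at chr9:67022590-67049672, Tpm2 at chr4:43513726-43523583, Tpm3 at chr3:90072651-90100902 and Tpm4 at chr8:72135288-72153142. The RefSeq table lists 38 transcripts for Tpm1 (10 of them curated), 13 for Tpm3 (7 curated), 4 for Tpm2 (3 curated) and 1 for Tpm4. The promoters are shown because Tpm1 and Tpm4 fell with both inhibitors while Tpm2 did not fall with blebbistatin, and because a site that rose with doxycycline overlaps a Tpm3 promoter. Each sequence is a RefSeq window of the GRCm38.p6 build, from 250 bases before to 50 after a transcription start, read on the strand of the gene. The windows are chr9:67049164-67049463 on the minus strand for Tpm1, chr4:43523505-43523804 on the minus strand for Tpm2, chr8:72135038-72135337 on the plus strand for Tpm4 and chr3:90079271-90079570 on the plus strand for the internal promoter of Tpm3. In the first 3, capitals mark motif matches on either strand (GGAATG or GGGCGG). In the Tpm3 window, capitals mark the 215 bases inside the doxycycline site.
Tpm1 promoter: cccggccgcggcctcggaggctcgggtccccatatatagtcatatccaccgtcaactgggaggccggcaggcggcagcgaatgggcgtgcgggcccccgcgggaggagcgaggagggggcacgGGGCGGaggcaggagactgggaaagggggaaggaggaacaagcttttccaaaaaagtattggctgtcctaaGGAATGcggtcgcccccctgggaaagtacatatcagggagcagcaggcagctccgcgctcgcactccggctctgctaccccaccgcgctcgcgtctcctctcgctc
Tpm2 promoter: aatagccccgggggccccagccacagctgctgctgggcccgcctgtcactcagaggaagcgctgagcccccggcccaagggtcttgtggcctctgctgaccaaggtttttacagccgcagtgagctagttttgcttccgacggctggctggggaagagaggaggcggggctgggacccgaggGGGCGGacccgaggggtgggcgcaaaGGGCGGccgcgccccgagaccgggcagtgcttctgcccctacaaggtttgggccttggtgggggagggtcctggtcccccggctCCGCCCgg
Tpm4 promoter: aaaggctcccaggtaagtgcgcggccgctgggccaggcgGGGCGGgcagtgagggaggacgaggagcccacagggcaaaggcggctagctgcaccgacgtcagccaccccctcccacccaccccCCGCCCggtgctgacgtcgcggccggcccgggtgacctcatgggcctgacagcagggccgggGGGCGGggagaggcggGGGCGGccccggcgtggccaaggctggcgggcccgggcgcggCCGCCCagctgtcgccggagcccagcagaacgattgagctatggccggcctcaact
Tpm3 internal promoter: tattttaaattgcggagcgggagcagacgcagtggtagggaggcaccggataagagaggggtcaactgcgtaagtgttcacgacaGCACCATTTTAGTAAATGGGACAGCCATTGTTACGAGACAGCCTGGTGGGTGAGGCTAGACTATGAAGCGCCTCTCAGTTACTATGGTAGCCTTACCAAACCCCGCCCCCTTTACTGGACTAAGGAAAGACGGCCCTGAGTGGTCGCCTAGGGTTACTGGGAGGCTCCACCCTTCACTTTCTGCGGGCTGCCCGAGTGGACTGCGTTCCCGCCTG

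Motifs were searched on both strands: the CArG box by its usual consensus, which binds serum response factor, GGAATG, the core bound by the TEAD partners of Yap and Taz, TGANTCA, bound by AP-1, and the GC box GGGCGG. The Tpm1 window held 1 TEAD core, at positions -56 to -51 from the start, and 1 GC box. Of all 32851 promoter windows in the table, 14.7% held a TEAD core and 35.7% a GC box. The Tpm2 window held 3 GC boxes, the Tpm4 window 5 and the internal Tpm3 window 1. The other Tpm3 window in the table, chr3:90072401-90072700, held no match. No member window matched the CArG box, found in 1.63% of all windows, or the AP-1 motif, found in 7.81%; this says only that these letters are not in these windows. The windows differ in base composition, with a GC content of 66.3% for Tpm1, 70.3% for Tpm2, 76.0% for Tpm4 and 55.7% for the internal Tpm3 window.

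The RNA libraries held 23375386 to 37061737 reads in genes. Fibroblast and tenocyte markers were present in every library, all 12 of the list above 1 RPM (reads of a gene for every 1000000 reads in genes) and summing to 37441 to 40425 RPM, so the labelled cell type carries its markers. Of 12 skeletal muscle markers, whose cells express the muscle forms of Tpm1, Tpm2 and Tpm3, 10 stayed under 1 RPM in every library, with Ckm and Myod1 at 0. Summed immune markers were 205 to 228 RPM in DMSO, 314 to 349.9 with blebbistatin and 304 to 345 with Y27632, with Lyz2, Cd68, Adgre1, Ptprc and Csf1r called higher under both inhibitors, Cd3e at 0 and Cd79a under 1. Summed smooth muscle markers, mostly Acta2 and Smtn, were 257 to 264 in DMSO, 157 to 172 with blebbistatin and 192 to 194 with Y27632, with Tagln and Des under 1; this list shares Cnn1 and Lmod1 with the lists of tropomyosin partners. Summed endothelial markers were 119 to 120.4 in DMSO, 81.1 to 91.7 with blebbistatin and 108 to 114 with Y27632, with Pecam1 and Emcn under 1; nearly all of this sum was Tek (74.3 to 115 RPM), called lower with both inhibitors, while Vwf was called higher with blebbistatin (log2 change 0.68, adjusted p = 0.0222 by limma). The part of these marker shifts in the tropomyosin results was not tested, and in bulk RNA fewer cells of a type and less RNA per cell cannot be told apart.

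Tpm1 and Tpm4 fell with both inhibitors, each by more under blebbistatin than under Y27632, whereas Tpm2 and Tpm3 were each called with 1 inhibitor. Blebbistatin lowered Tpm1 to 47.7% and Tpm4 to 55.7% of their DMSO means, and Y27632 lowered them to 61.3% and 68.6%. Tpm3 fell to 85.8% under blebbistatin, and Tpm2 to 89.3% under Y27632. Levels below are CPM, which is RPM with the 9 libraries scaled together by the TMM method, and changes are log2 differences of the deposited normalised counts plus 1, tested with limma and adjusted by the Benjamini-Hochberg method over all genes. CPM is not corrected for gene length, so levels are compared between groups and not between genes.

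Tpm1 encodes the alpha tropomyosins, from striated muscle forms to the long forms of stress fibres. The DMSO libraries held 859.8, 856 and 872 CPM (863 ± 8.26, SD, n = 3), the blebbistatin libraries 408, 431 and 399 (413 ± 16.7) and the Y27632 libraries 539, 528 and 521 (529.5 ± 9.40). The 3 groups did not overlap: every blebbistatin library lay below every Y27632 library, and those below every DMSO library. The log2 change was -1.07 (SE 0.032, adjusted p = 7.83e-11 by limma) with blebbistatin and -0.71 (SE 0.028, adjusted p = 2.49e-09 by limma) with Y27632. Counted from the lowest, the Tpm1 change stood at rank 384 of 14882 genes tested with blebbistatin and at rank 430 of 14833 with Y27632.

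Tpm4, a gene of cytoplasmic tropomyosins found on stress fibres and in platelets, held 882, 931 and 974 CPM in DMSO (929 ± 45.6, SD, n = 3). With blebbistatin it held 529.8, 517 and 507 CPM (518 ± 11.6), and with Y27632 663, 620.3 and 631 (638 ± 22.1). As for Tpm1, the 3 groups were fully separate, in the same order. The log2 change was -0.84 (SE 0.037, adjusted p = 2.10e-09 by limma) with blebbistatin and -0.54 (SE 0.038, adjusted p = 2.51e-07 by limma) with Y27632. Its ranks from the lowest change were 607 and 759. The pseudogene Gm7809, listed as a copy of a tropomyosin gene, has no row under this symbol in the RNA tables, and whether reads were shared with it is uncertain.

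Tpm3 encodes the gamma tropomyosins, slow muscle forms and short cytoplasmic forms. It held 212, 209 and 218 CPM in DMSO (213 ± 4.94, SD, n = 3), 188, 179.7 and 181 with blebbistatin (183 ± 4.29) and 206, 202 and 204 with Y27632 (204 ± 1.97). The blebbistatin libraries lay below all others, and the Y27632 libraries lay just below the DMSO libraries. The blebbistatin change was -0.22 (SE 0.033, adjusted p = 0.000115 by limma). The Y27632 change, -0.06 (SE 0.030, adjusted p = 0.131 by limma), did not pass, with a 95% interval from -0.13 to 0.0035. The pseudogene copies Tpm3-rs2, Tpm3-rs3 and Tpm3-rs7 have no row under these symbols in the RNA tables either, so Tpm3 carries an uncertainty over shared reads.

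Tpm2 encodes the beta tropomyosins of muscle and of fibroblast stress fibres. It held 102, 94.9 and 101 CPM in DMSO (99.5 ± 3.97, SD, n = 3), 101, 99.1 and 103 with blebbistatin (101 ± 2.13) and 85.6, 91.4 and 89.5 with Y27632 (88.9 ± 2.96). The blebbistatin libraries overlapped the DMSO libraries, while the Y27632 libraries lay below both. The blebbistatin change was 0.02 (SE 0.039, adjusted p = 0.665 by limma), with a 95% interval from -0.06 to 0.11. The Y27632 change was -0.16 (SE 0.040, adjusted p = 0.00652 by limma). The 3′ end of Tpm2 overlaps Car9, which reached at most 119 reads in a library.

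**Figure D1:**
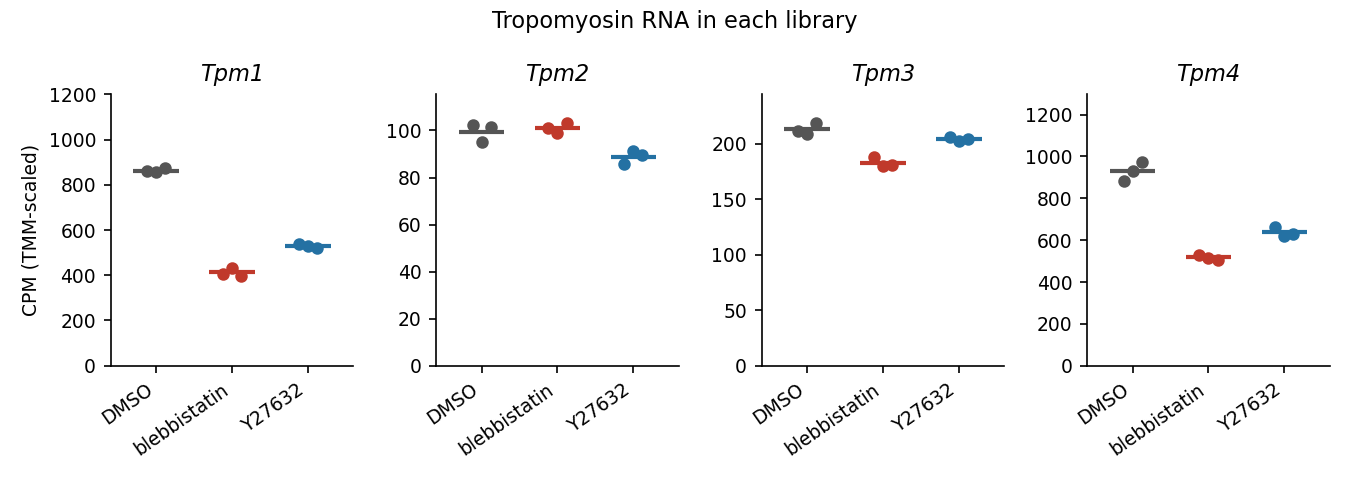
RNA level of each tropomyosin gene in each library, in CPM from 0, with 1 panel a gene; points are libraries (3 a group) and bars are group means. The Tpm1 and Tpm4 groups are separate and ordered DMSO, Y27632, blebbistatin, while in Tpm2 the Y27632 libraries are the lowest, from 85.6 to 91.4 CPM.

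With blebbistatin 3 of the 4 genes were called at an adjusted p under 0.05, all of them lower; of all 14882 genes tested 53.0% were called and 26.9% were called lower. With Y27632 3 of 4 were called, again all lower; of all 14833 genes tested 35.9% were called and 17.8% were called lower. So many genes changed that the number of tropomyosins called says little, and the sizes carry more: the median log2 change over all genes was 0.0021 with blebbistatin and 0.0040 with Y27632. Both comparisons use the same 3 DMSO libraries. In the authors' deposited table the blebbistatin changes were -1.07 for Tpm1, 0.02 for Tpm2, -0.22 for Tpm3 and -0.84 for Tpm4, and the authors' adjusted p put the same 3 genes under 0.05 (Tpm2 at 0.796). For Y27632 the authors' deposited table gives Tpm2 an adjusted p of 0.00619 and Tpm3 one of 0.237.

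**Figure D2:**
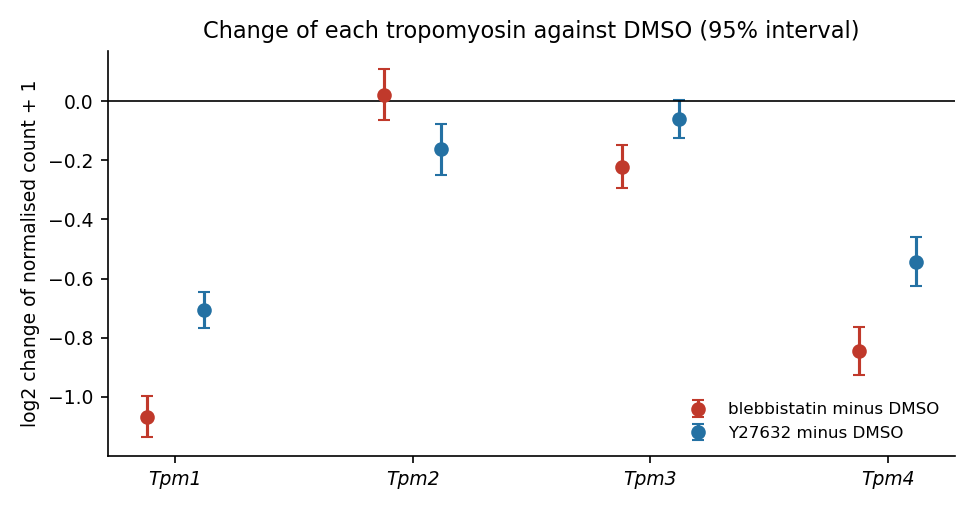
Log2 change against DMSO of each tropomyosin gene (vertical axis, log2 of normalised count + 1), with blebbistatin in red and Y27632 in blue; points are limma estimates from 3 against 3 libraries and bars are 95% intervals. The Tpm1 and Tpm4 intervals lie well below 0 for both inhibitors, whereas the interval crosses 0 for Tpm2 with blebbistatin and for Tpm3 with Y27632.

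The inhibitors were compared directly on the reads of all 9 libraries with edgeR's quasi-likelihood test. All 4 genes differed between them, 3 lower with blebbistatin; of the 15262 genes tested 52.4% were called and 25.8% were called lower with blebbistatin. Tpm1 was lower with blebbistatin than with Y27632 by a log2 difference of -0.35 (SE 0.030, adjusted p = 2.57e-07 by edgeR). Tpm4 differed by -0.29 (SE 0.037, adjusted p = 1.31e-05 by edgeR) and Tpm3 by -0.15 (SE 0.030, adjusted p = 0.000818 by edgeR). Tpm2 went the other way, 0.20 higher with blebbistatin (SE 0.039, adjusted p = 0.000712 by edgeR). The doses differ, 10 µM against 30 µM, so the sizes are those of these treatments at these doses.

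The 4 genes together held fewer of the reads in every treated library than in any DMSO library. Their summed RPM were 2010.5, 2041 and 2137 in DMSO (2063 ± 66.2, SD, n = 3), 1276, 1255 and 1247 with blebbistatin (1259 ± 15.1, 61.0% of DMSO) and 1474, 1425 and 1412 with Y27632 (1437 ± 32.7, 69.7% of DMSO). Within this sum the share of Tpm1 was 41.0% ± 0.769 (SD, n = 3) in DMSO, 34.0% ± 1.02 with blebbistatin and 36.3% ± 0.331 with Y27632. The Tpm3 share was 10.1% ± 0.168, 15.1% ± 0.363 and 14.0% ± 0.173 in the same order. The Tpm2 share was 4.73% ± 0.219, 8.33% ± 0.315 and 6.09% ± 0.318. The Tpm4 share, 44.1% ± 1.08, 42.6% ± 0.537 and 43.7% ± 0.680, overlapped between the groups. For the first 3 genes no DMSO library overlapped a treated one, with a two-sided exact permutation p of 0.1 in each comparison, the smallest that 3 against 3 allows (adjusted p = 0.133 over 8 tests). For Tpm4 the exact p was 0.2 with blebbistatin and 0.6 with Y27632. The shares of a library add up to the whole, so a fall of some genes raises the shares of others and the 8 tests are not independent. With blebbistatin the RNA of Tpm2 was at 101.5% and that of Tpm3 at 85.8% of DMSO, though both shares were higher. These are shares of reads, not of transcripts, since no transcript length was used.

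**Figure D3:**
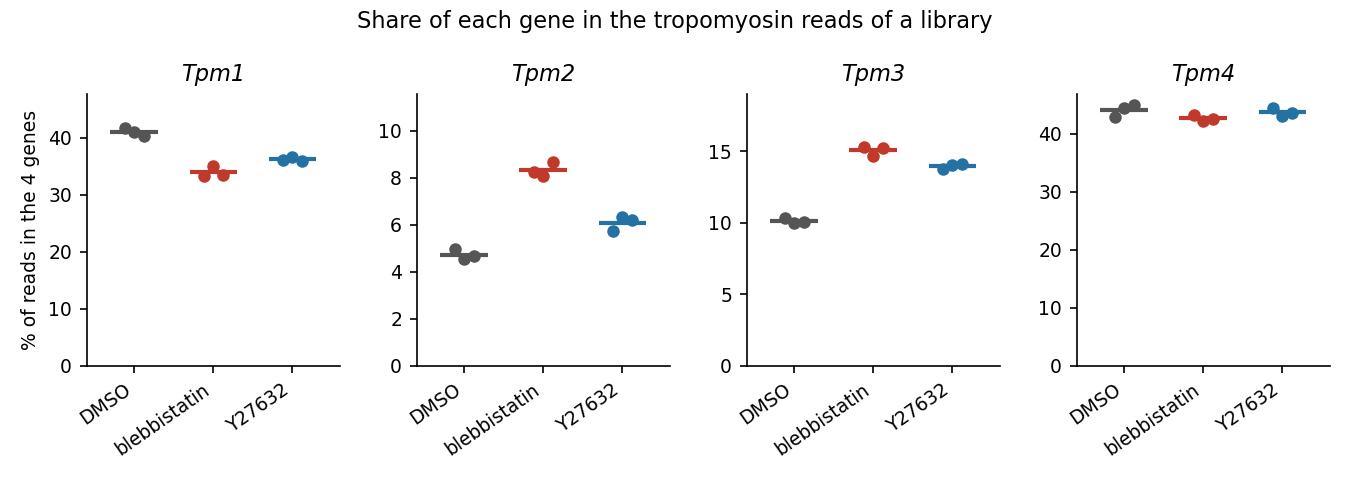
Share of each gene in the summed reads of the 4 tropomyosin genes of a library, in percent from 0; points are libraries (3 a group) and bars are group means. The mean Tpm1 share is 41.0% in DMSO, 34.0% with blebbistatin and 36.3% with Y27632; for Tpm1, Tpm2 and Tpm3 no DMSO library overlaps a treated one.

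The genes whose levels over the 9 libraries rose and fell most like each tropomyosin were found by Pearson's r of log2 CPM. The search covered 9563 genes with a mean of at least 10 CPM, and r takes no account of the size of a change. The libraries fall into 3 treated groups that all genes share, so r describes this pattern only and is given with no p. For Tpm1 they were Tbxa2r, the thromboxane receptor (r = 0.998), Tead3, a TEAD factor (r = 0.997), and H3f3b, a histone H3.3 gene (r = 0.997). Their log2 changes with blebbistatin were -2.02, -1.16 and -0.36, beside -1.07 for Tpm1. For Tpm4 they were Hspa5, the chaperone of the endoplasmic reticulum (r = 0.997), the signalling ligand Bmp6 (r = 0.994) and Pik3cb, a PI3-kinase subunit (r = 0.993). For Tpm3 they were the chaperone Hsp90aa1 (r = 0.993), Rftn1 (r = 0.992) and Phf10, a chromatin remodeller subunit (r = 0.991). For Tpm2 they were Pgm2, a sugar phosphate mutase (r = 0.974), Gbe1, the glycogen branching enzyme (r = 0.969), and Tvp23a (r = 0.964). Among the 4 genes themselves r was 0.993 between Tpm1 and Tpm4, 0.874 between Tpm1 and Tpm3 and -0.30 between Tpm2 and Tpm3, over 9 libraries.

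Genes that work with tropomyosin on the filament were taken from lists by role. Of all genes tested 53.0% were called with blebbistatin and 26.9% called lower, and with Y27632 35.9% and 17.8%. With so many genes called and few genes in a list, the counts below alone say little about a list. Caldesmon and the calponins bind actin and tropomyosin and restrain myosin. Of these 4 genes 3 fell with blebbistatin (median log2 change -0.64 over the list) and the same 3 with Y27632 (median -0.51). Cald1, caldesmon, had 32350 ± 604 normalised counts in DMSO and 20595 ± 690.0 with blebbistatin (SD, n = 3), and its log2 change was -0.65 (SE 0.033, adjusted p = 6.42e-09 by limma). Its change with Y27632 was -0.28 (SE 0.029, adjusted p = 1.05e-05 by limma), and the inhibitors differed by -0.36 (adjusted p = 1.75e-07 by edgeR). Cnn2, a non-muscle calponin, changed by -1.41 with blebbistatin and -1.01 with Y27632 (adjusted p = 2.91e-11 and 1.76e-09 by limma). Cnn1, the smooth muscle calponin, had only 29 to 54 reads a library; its blebbistatin change of -0.62 (adjusted p = 0.0345 by limma) has an adjusted p of 0.103 in the authors' deposited table, and its Y27632 change was -0.75 (adjusted p = 0.00718 by limma). The blebbistatin call of Cnn1 was lost, leaving 2 of 4, with no filter, with DESeq2, and without DMSO replicate 1, DMSO replicate 2 or blebbistatin replicate 2. Cnn3 did not pass, with changes of -0.0059 and -0.07.

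Tropomodulins and leiomodins bind tropomyosin at the pointed end of the filament, where tropomodulins cap it and leiomodins start new filaments. Of 7 listed genes 5 had a mean of at least 10 and were tested. With blebbistatin 2 rose and 2 fell (median -0.28), and with Y27632 1 rose and 1 fell (median 0.10). Tmod3, the tropomodulin found in most tissues, fell with blebbistatin, from a normalised count of 2201 ± 42.7 to 1816 ± 44.8 (SD, n = 3; log2 change -0.28, adjusted p = 4.71e-05 by limma). With Y27632 its change was 0.10 (adjusted p = 0.0524 by limma), and the inhibitors differed by -0.36 (adjusted p = 9.14e-07 by edgeR). Tmod1, at 11 to 78 reads a library, rose with blebbistatin by 1.95 (SE 0.228, adjusted p = 1.44e-05 by limma). Its Y27632 change of 0.61 did not pass (adjusted p = 0.0734 by limma), and the inhibitors differed by 1.41 (adjusted p = 3.96e-05 by edgeR). Tmod2 rose with both inhibitors, by 0.45 with blebbistatin (SE 0.049, adjusted p = 7.34e-06 by limma) and by 0.35 with Y27632 (SE 0.061, adjusted p = 0.000734 by limma). Its difference between the inhibitors, 0.12, did not pass (adjusted p = 0.0964 by edgeR). Lmod1, the smooth muscle leiomodin, at 5 to 41 reads a library, fell by 1.96 with blebbistatin and by 1.52 with Y27632 (adjusted p = 0.000239 and 0.00126 by limma).

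Troponins sit on tropomyosin in striated muscle and make it answer to calcium. Of 8 listed genes 4 had a mean of at least 10 and were tested, all at low counts. With blebbistatin their log2 changes lay between 0.14 and 0.35, with adjusted p-values from 0.0898 to 0.596 by limma. With Y27632 Tnnt3, a troponin T, rose from 90.4 ± 6.73 to 195 ± 22.1 normalised counts (SD, n = 3; log2 change 1.10, adjusted p = 1.32e-05 by limma), and the inhibitors differed by -0.82 (adjusted p = 3.28e-05 by edgeR). The other 3 did not pass with Y27632.

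Formins build the unbranched filaments that tropomyosins coat. Of 13 formins 5 rose and 5 fell with blebbistatin (median -0.0051), and 3 rose and 4 fell with Y27632 (median -0.13). Inf2 rose with blebbistatin by 0.65 (SE 0.040, adjusted p = 3.81e-08 by limma), and Fhod3, a muscle formin at 18 to 59 reads a library, fell by 1.20 (adjusted p = 0.000374 by limma). With Y27632 Fhod1, a formin of stress fibres, fell by 0.60 (adjusted p = 8.77e-07 by limma) and Diaph3 by 0.36 (adjusted p = 0.000947 by limma). Fhod1 and Diaph3 also fell with blebbistatin, with changes of -0.57 and -0.52 (adjusted p = 7.63e-07 and 3.90e-05 by limma). Neither was called between the inhibitors (adjusted p = 0.560 and 0.114 by edgeR). Inf2 differed between the inhibitors by 0.73 (adjusted p = 6.01e-09 by edgeR).

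Cofilin and gelsolin cut filaments, the Arp2/3 complex starts branched networks from which many tropomyosins are kept away, and fascin bundles filaments. Of these 13 genes 5 rose and 3 fell with blebbistatin (median 0.04), and 4 rose and 1 fell with Y27632 (median 0.015). Fscn1, fascin, fell with blebbistatin, its normalised count going from 14194 ± 561 to 6247 ± 500.4 (SD, n = 3; log2 change -1.19, adjusted p = 1.63e-09 by limma). Its Y27632 change was -0.32 (adjusted p = 1.93e-05 by limma), and the inhibitors differed by -0.85 (adjusted p = 4.19e-09 by edgeR). Gsn, gelsolin, rose by 0.22 with blebbistatin and by 0.21 with Y27632 (adjusted p = 0.00113 and 0.00202 by limma).

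The last list holds RNA-binding proteins that govern alternative splicing, among them regulators of tropomyosin exons such as Ptbp1. Of 14 genes 2 rose and 7 fell with blebbistatin (median -0.12), and 2 rose and 4 fell with Y27632 (median -0.02). Celf2 fell by 0.86 with blebbistatin and by 0.40 with Y27632 (adjusted p = 5.95e-09 and 6.95e-06 by limma). Mbnl2, a muscleblind protein, fell by 0.60 with blebbistatin (adjusted p = 1.84e-08 by limma) and changed by -0.14 with Y27632 (adjusted p = 0.00183 by limma). Rbpms2, known from smooth muscle, fell by 0.43 with Y27632 (adjusted p = 0.00855 by limma). Its blebbistatin change was 0.12 (adjusted p = 0.437 by limma), and the inhibitors differed by 0.58 (adjusted p = 0.00154 by edgeR). Ptbp1 changed by -0.43 with blebbistatin and by -0.03 with Y27632 (adjusted p = 4.96e-07 and 0.450 by limma). The inhibitors differed for Ptbp1 by -0.39 (adjusted p = 2.48e-07 by edgeR). Which tropomyosin exons were used cannot be read from counts per gene.

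**Figure D4:**
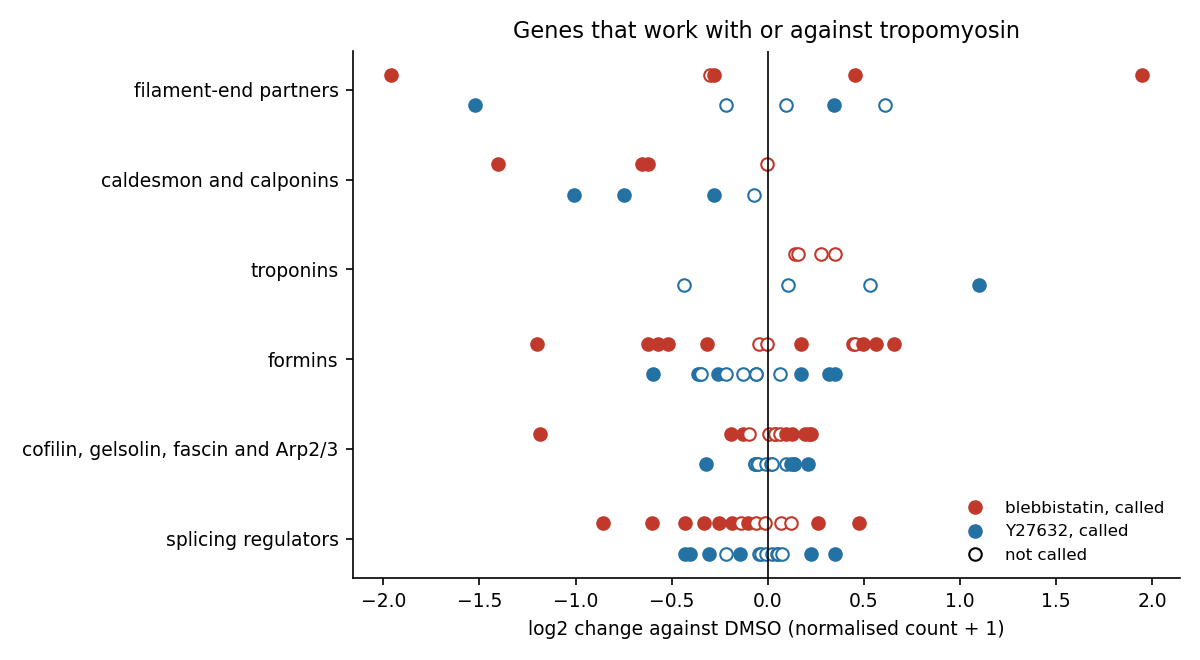
Log2 change against DMSO (horizontal axis, normalised count + 1) of the tested genes in 6 lists of actin and splicing genes (rows). Red is blebbistatin and blue is Y27632, and filled points were called at an adjusted p under 0.05 by limma. In the row of caldesmon and calponins 3 of 4 genes are called lower with each inhibitor. The formins and the row with cofilin hold called genes on both sides of 0. Of all genes tested 26.9% were called lower with blebbistatin and 17.8% with Y27632.

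Chromatin sites are known only from the deposited lists, which give group means, a log2 fold and a false discovery rate (FDR) for sites past the authors' threshold and no value per library, so they are described and not tested. Of the 7 sites with a tropomyosin name, 4 are 1 place in Tpm4, its last intron (intron 7 of 7), about 12 kb after the start. In the authors' deposited table of ATAC sites the interval chr8:72147174-72147659 fell from a log2 mean of 7.78 in DMSO to 5.82 with blebbistatin (log2 fold -1.96, FDR 0.00151). The same interval fell from 7.69 to 6.48 in the authors' deposited table for Y27632 (log2 fold -1.21, FDR 0.0392). Nearly all sites of these lists are lower ones, 98.3% of 970 with blebbistatin and 85.0% of 207 with Y27632, so the direction says little about Tpm4. By size the Tpm4 site stood 94th of 953 lower sites with blebbistatin and 156th of 176 with Y27632. Both lists share the DMSO libraries.

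The same intron appears in the lists from the 12 further libraries, which share no library with the ATAC lists. In the authors' deposited table of blebbistatin against neither drug, chr8:72147203-72147620 fell from 7.42 to 5.75 (log2 fold -1.66, FDR 4.22e-07), 48th by size of 1219 lower sites. Of the 1231 sites in this list 99.03% are lower ones, so here too the direction says little. With doxycycline against neither drug, chr8:72147152-72147677 rose in the authors' deposited table from 7.37 to 8.43 (log2 fold 1.06, FDR 6.93e-06), 5459th by size of 7297 higher sites. The interval of the first covers 418 of the 486 bases of the ATAC interval, and that of the second covers all 486. The authors' deposited table of ATAC sites with blebbistatin has a column for a TEAD motif: it names none for the Tpm4 site, and 62.2% of the 970 sites have one. At the same gene the RNA fell with both inhibitors; the labels name no RNA library for doxycycline.

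The other 3 sites stand in the doxycycline list, where 95.9% of 7613 sites are higher ones. The internal Tpm3 promoter, chr3:90079356-90079764, rose in the authors' deposited table from 8.04 to 9.04 (log2 fold 1.01, FDR 1.77e-05); this interval holds the bases in capitals in the Tpm3 window above. In the same authors' deposited table a site in intron 1 of 8 of Tpm3, chr3:90080059-90080269, 643 bases after the start, rose from 6.2 to 7.48 (log2 fold 1.28, FDR 3.63e-07). The authors' deposited table also holds Tpm1: an intergenic site before Tpm1, chr9:67071655-67071906, at -22568 bases from a start, rose from 4.63 to 6.0 (log2 fold 1.37, FDR 3.9e-05). By size these 3 sites stood 6691st, 2266th and 1541st of 7297 higher sites, in the order named. The reference column of this list is headed as blebbistatin without doxycycline but was read as neither drug: at 13 identical sites in both lists it differed by -0.13 ± 0.0044 (SD) from the neither-drug column and by 1.12 ± 0.184 from the blebbistatin column. Tpm2 has no site in the 5 lists, and the list of doxycycline with blebbistatin against doxycycline names no tropomyosin gene among its 6346 sites. The lists from these 12 libraries keep a site only if its log2 fold is 1 or more in size and its FDR 0.05 or less, so a gene that is missing may still have a smaller change.

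**Figure D5:**
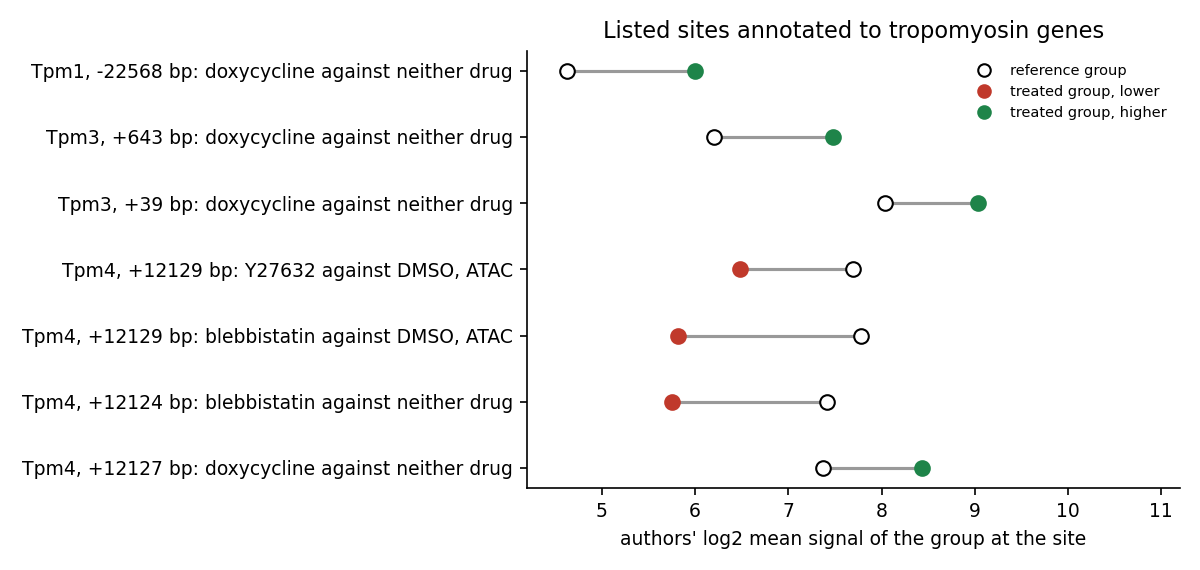
Group means of the authors' log2 signal (horizontal axis) at the 7 listed sites annotated to tropomyosin genes, one row a site and comparison with the distance from the nearest start in base pairs; open circles are the reference group, red a lower and green a higher treated group. The 3 inhibitor rows of Tpm4 move down, with log2 folds from -1.96 to -1.21, and the 4 doxycycline rows move up, with folds from 1.01 to 1.37.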

How the data were processed

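RNA tables hold counts that the authors divided by a size factor for each library (normalised signal), beside the authors' log2 fold changes and adjusted p-values, per the file headers. The submitters' processing notes name HISAT2, featureCounts and DESeq2 among the tools, with MACS2, DiffBind and HOMER for sites and the build mm10; their settings and strand use are not given in the sources used here. Whole reads were recovered from the normalised values (tolerance 0.1 reads). No sample column was left unmatched. Genes with a mean of at least 10 were tested per table with limma 3.58.1 on log2(normalised count + 1), in R 4.3.3, called at an adjusted p under 0.05. The inhibitors were compared with edgeR 4.0.16 (quasi-likelihood, TMM, filterByExpr) on the recovered reads, which DESeq2 1.42.0 also tested. The scripts were tested on simulated data. Site lists give the authors' log2 means, fold ratios on a log2 scale, FDR as q-values and distances as deposited. Named were the 4 genes, up to 2 called genes of largest change per list and inhibitor, Cald1 and Tmod3. Per member the 3 genes of highest r were also named. Cnn3 completes its list, and Ptbp1 is given as a regulator of tropomyosin exons. The members and lists were chosen with earlier results of these data known.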

Additional observations from a re-analysis of the deposited data

How the results depend on the processing

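The comparisons with DMSO were recomputed with other pseudocounts, no filter or a mean of at least 50, TMM scaling, and edgeR or DESeq2 on recovered reads. The comparison of the inhibitors was recomputed with RLE scaling, DESeq2, no filter and only the 6 treated libraries. All 3 were refitted with a replicate block and without each compared library in turn, and the read shares only the latter way. The r values, the summed RPM and the partners' differences between inhibitors were not recomputed. Of 156 recomputed log2 changes of the tropomyosins 155 kept their direction and their side of the threshold, and 39 of 39 counts of called genes stayed within 1.5 times. All 48 recomputed share differences moved by less than the spread between libraries; that of Tpm4 with Y27632 ranged from -1.06 to -0.038 percentage points, against -0.45 with all libraries. The log2 change that did not was Tpm2 with blebbistatin, which was 0.02 and became -0.010 without DMSO replicate 2, within a range of -0.010 to 0.042 when single libraries were left out (adjusted p from 0.452 to 0.960 over all alternatives, limma, edgeR and DESeq2). Without single libraries Tpm1 ranged from -1.09 to -1.05 with blebbistatin and from -0.72 to -0.70 with Y27632, and Tpm4 from -0.88 to -0.81 and from -0.58 to -0.51. The adjusted p of Tpm2 with Y27632 ranged from 0.00517 to 0.0308, and that of Tpm3 with Y27632 from 0.111 to 0.321 (limma, edgeR and DESeq2). Same-numbered libraries did not deviate together (r from -0.26 to 0.054), so no pairing by number was seen. With 3 libraries a group this cannot exclude a small shared effect. The fit with a replicate block gave -1.07 for Tpm1 and -0.84 for Tpm4 with blebbistatin. It called 7604 genes instead of 7894 with blebbistatin, and 4633 instead of 5328 with Y27632. Of 336 recomputed list counts 330 stayed within 1.5 times, which includes the calponin count going from 3 to 2 with blebbistatin where Cnn1 lost its call or, with a mean of at least 50, was not tested (also with Y27632). The other 6 are all in the tropomodulin and leiomodin list: with a mean of at least 50, which leaves out Tmod1 and Lmod1, 1 rose and 1 fell with blebbistatin and 2 rose and 0 fell with Y27632 (limma), and 2 rose with Y27632 under TMM scaling or without Y27632 replicate 2. Shares per kilobase of transcript were not run, since no spliced length was used. Genes with under 100 reads a library (Tmod1, Lmod1, Cnn1, Fhod3) are limited by depth.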

Other observations

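The sites counted above leave out sites near a tropomyosin gene that the authors annotated to a neighbour. A place in intron 4 of 8 of the transcription factor gene Creb3, 40670 to 40689 bases from Tpm2, was lower in 3 lists. In the authors' deposited table of ATAC sites with blebbistatin chr4:43564267-43564456 had a log2 fold of -1.8 (FDR 0.00449) and a TEAD motif. The authors' deposited tables also show it lower with blebbistatin against neither drug (-1.45, FDR 0.000102) and with doxycycline and blebbistatin against doxycycline (-1.19, FDR 0.0037). Of all sites in these 3 lists 98.25%, 99.03% and 99.78% are lower, in the order given, so the shared direction says little. Within 50 kb of Tpm1 the authors' deposited tables hold 4 sites named for other genes, 1 for Lactb and 3 for Gm10646. The Lactb site was lower with blebbistatin against neither drug (-1.04). The Gm10646 sites chr9:67090624-67090958 and chr9:67093181-67093323 were higher with doxycycline (1.09 and 1.02). A different Gm10646 site, chr9:67081758-67081971, was lower when blebbistatin was added to doxycycline (-1.02). Near Tpm3 the authors' deposited table of doxycycline sites has the promoter of Ubap2l, 19739 bases away, with a log2 fold of 1.03 (FDR 2.23e-05). No link between these sites and a tropomyosin gene was measured.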
